A study of Mus musculus with 28 samples.

Results

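Cystine import and glutathione turnover were followed through 10 genes in mouse liver RNA. Slc7a11 is the subunit of the cystine importer xCT that moves the amino acid. Gclc and Gclm are the catalytic and modifier subunits of glutamate-cysteine ligase, and Gss is glutathione synthetase. Gsr is glutathione reductase, Gpx2 and Gpx4 are glutathione peroxidases, and Ggt1 is the gamma-glutamyltransferase that opens the breakdown of glutathione outside the cell. Cbs and Cth are the enzymes of transsulfuration. Probes were chosen by name: a probe belonged to the set if the RefSeq accession written in the scanner file maps to 1 of these symbols. That gave 14 of the 41174 probes on the array, 3 for Slc7a11, 3 for Gsr and 1 for each of the other genes. All 14 probes passed the filter on dim probes, so 10 of the 20303 features tested are members. For genes with several probes the brightest stands for the gene.

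All 7 groups, the controls included, came from mice without fumarylacetoacetate hydrolase (Fah-/-), the last enzyme of tyrosine breakdown. Such mice live on nitisinone (NTBC), a drug that blocks an earlier step and so keeps reactive tyrosine metabolites from forming. The groups were Fah-/- livers and Fah-/- p53-/- livers at 3 doses (full, reduced and no NTBC) and Fah-/- p21-/- livers at the last of these, with 4 arrays in each group and 28 in all. Mice on full NTBC drank water with 7.5 mg/L of the drug. The labels disagree on the reduced dose, which is 25% of full on each sample but 2.5% for 3 months in the notes on design and treatment. The sources used here do not give the time without NTBC, the ages, or whether the 4 arrays of a group came from separate animals. The p-values therefore reflect how far these arrays differ among themselves, which may be technical.

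By the scan dates in the file headers, each dose was scanned in a calendar year of its own, 3 years in all. Dose and scan year therefore cannot be told apart, and scan days within a year were not compared. Genotype and slide cannot be told apart at full and reduced dose either, where no slide held both genotypes. The 12 arrays with no NTBC lay on 3 slides with 2 groups on each. By Xist and Ddx3y all 4 Fah-/- p53-/- arrays with no NTBC and Fah-/- p21-/- replicates 1 and 2 were female and the other arrays male. Sex therefore cannot be told apart from dose where Fah-/- p53-/- livers with no NTBC are set against those on full or reduced NTBC. Nor can it be told apart from genotype between Fah-/- p53-/- and Fah-/- livers with no NTBC, or in the response to no NTBC. The 75th percentile of the processed signal was 252 to 578 per array, and 54.8% to 68.5% of probes were well above background. Probes for Fah, Trp53 (p53) and Cdkn1a (p21) gave signal on all 28 arrays, so they do not check the genotypes, and where they lie relative to the deletions was not analysed here.

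Cysteine limits how much glutathione a cell can make. It enters as cystine through xCT, which exchanges it for glutamate, or is made from homocysteine by Cbs and then Cth, a route for which the liver is the main organ. Glutamate-cysteine ligase and then Gss build the tripeptide, Gpx enzymes spend it on peroxides, Gsr regenerates it with NADPH, and Ggt1 on the cell surface splits it. Slc7a11, Gclc, Gclm, Gsr and Gpx2 are textbook targets of the oxidant-responsive factor Nrf2 (Nfe2l2), Slc7a11 is also a target of the amino acid stress factor Atf4, and p53 is known to repress Slc7a11 in other settings. In the adult liver Ggt1 is normally low in hepatocytes and appears in bile duct cells and in fetal or injured hepatocytes.

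RefSeq promoters were searched for the core of the antioxidant response element, bound by Nrf2 (TGACNNNGC), and of the amino acid response element, bound by Atf4 (TGATGNAA), each on both strands, in windows from 250 bases before to 50 bases after a start. Windows were at hand for 7 of the 10 genes, and Gclc, Gsr and Cth are named only. The first motif occurs in 12.4% of all 32851 windows and the second in 3.97%. The 250 bases before the start are shown for the importer, for the ligase subunit and for 2 of the 4 starts of Ggt1, since these hold matches. Capitals mark the matches, which are written on the gene's strand, and coordinates are those of GRCm38.p6.
Slc7a11, chr3:50443614-50443863, minus strand: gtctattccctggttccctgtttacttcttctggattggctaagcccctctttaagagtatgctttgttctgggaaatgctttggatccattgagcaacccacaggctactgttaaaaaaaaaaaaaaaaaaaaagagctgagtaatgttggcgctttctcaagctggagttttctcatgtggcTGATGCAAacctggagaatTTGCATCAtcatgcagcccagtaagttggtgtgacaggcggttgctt
Gclm, chr3:122245307-122245556, plus strand: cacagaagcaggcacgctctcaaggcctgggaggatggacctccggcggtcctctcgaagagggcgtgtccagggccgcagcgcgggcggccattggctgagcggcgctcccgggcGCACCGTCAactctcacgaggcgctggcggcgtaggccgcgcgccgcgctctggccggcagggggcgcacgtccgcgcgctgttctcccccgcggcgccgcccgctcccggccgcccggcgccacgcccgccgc
Ggt1, start 2, chr10:75568412-75568661, plus strand: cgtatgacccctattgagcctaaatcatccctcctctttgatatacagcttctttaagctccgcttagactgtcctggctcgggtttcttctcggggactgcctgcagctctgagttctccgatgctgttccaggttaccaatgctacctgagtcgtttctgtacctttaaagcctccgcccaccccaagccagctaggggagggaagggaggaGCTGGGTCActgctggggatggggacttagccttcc
Ggt1, start 3, chr10:75571310-75571559, plus strand: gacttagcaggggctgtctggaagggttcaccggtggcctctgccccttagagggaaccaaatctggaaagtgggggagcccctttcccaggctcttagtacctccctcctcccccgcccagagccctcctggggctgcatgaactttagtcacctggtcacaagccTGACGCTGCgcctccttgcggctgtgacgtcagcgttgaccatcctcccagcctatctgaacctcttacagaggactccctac
Slc7a11 holds 2 matches to the amino acid response core, beginning at -66 and, on the other strand, at -47 from the start, and none to the antioxidant core. Gclm holds 1 match to the antioxidant core at -134, read on the other strand. Starts 2 and 3 of Ggt1 hold 1 each, at -36 on the other strand and at -83, and the window of start 1 holds 1 at 42 bases after it. The windows of Gss, Cbs, Gpx2 and Gpx4 hold neither motif. A match describes letters only, and a window without one says nothing of either factor.

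On lowered NTBC the genes of cystine import, glutathione synthesis and glutathione recycling were higher in both genotypes, except Gclm in Fah-/- p53-/- livers with no NTBC, and Cbs was lower. With reduced against full NTBC, 8 of the 10 genes rose and 1 fell in Fah-/- livers, where 17.4% of all features rose and 22.3% fell. The Fah-/- p53-/- livers had 7 genes higher and 1 lower, beside 20.3% and 19.6% of all features. With no against full NTBC, 7 rose and 1 fell in Fah-/- livers (29.3% and 41.6% of all features), and 6 rose and 3 fell in Fah-/- p53-/- livers (29.6% and 40.1%). The counts of both genotypes include Slc7a11 and Ggt1, which passed the filter only through groups on lowered NTBC. Changes are log2 differences ± SE from 1 limma fit over the 28 arrays, n = 4 arrays per group, and "rose" and "fell" are used for genes with an adjusted p under 0.05 over all 20303 features.

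The median change of the 10 genes was 0.90 in Fah-/- and 0.70 in Fah-/- p53-/- livers on reduced NTBC, beside -0.03 and 0.03 over all features. With no NTBC it was 1.29 and 1.08, beside -0.17 and -0.14. The split depends on the scaling for the Fah-/- p53-/- livers. After normexp background correction 7 rose and 0 fell on reduced NTBC and 6 rose and 1 fell with no NTBC, and with quantile normalization or the deposited values it was 7 and 1 with no NTBC.

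**Figure D1:**
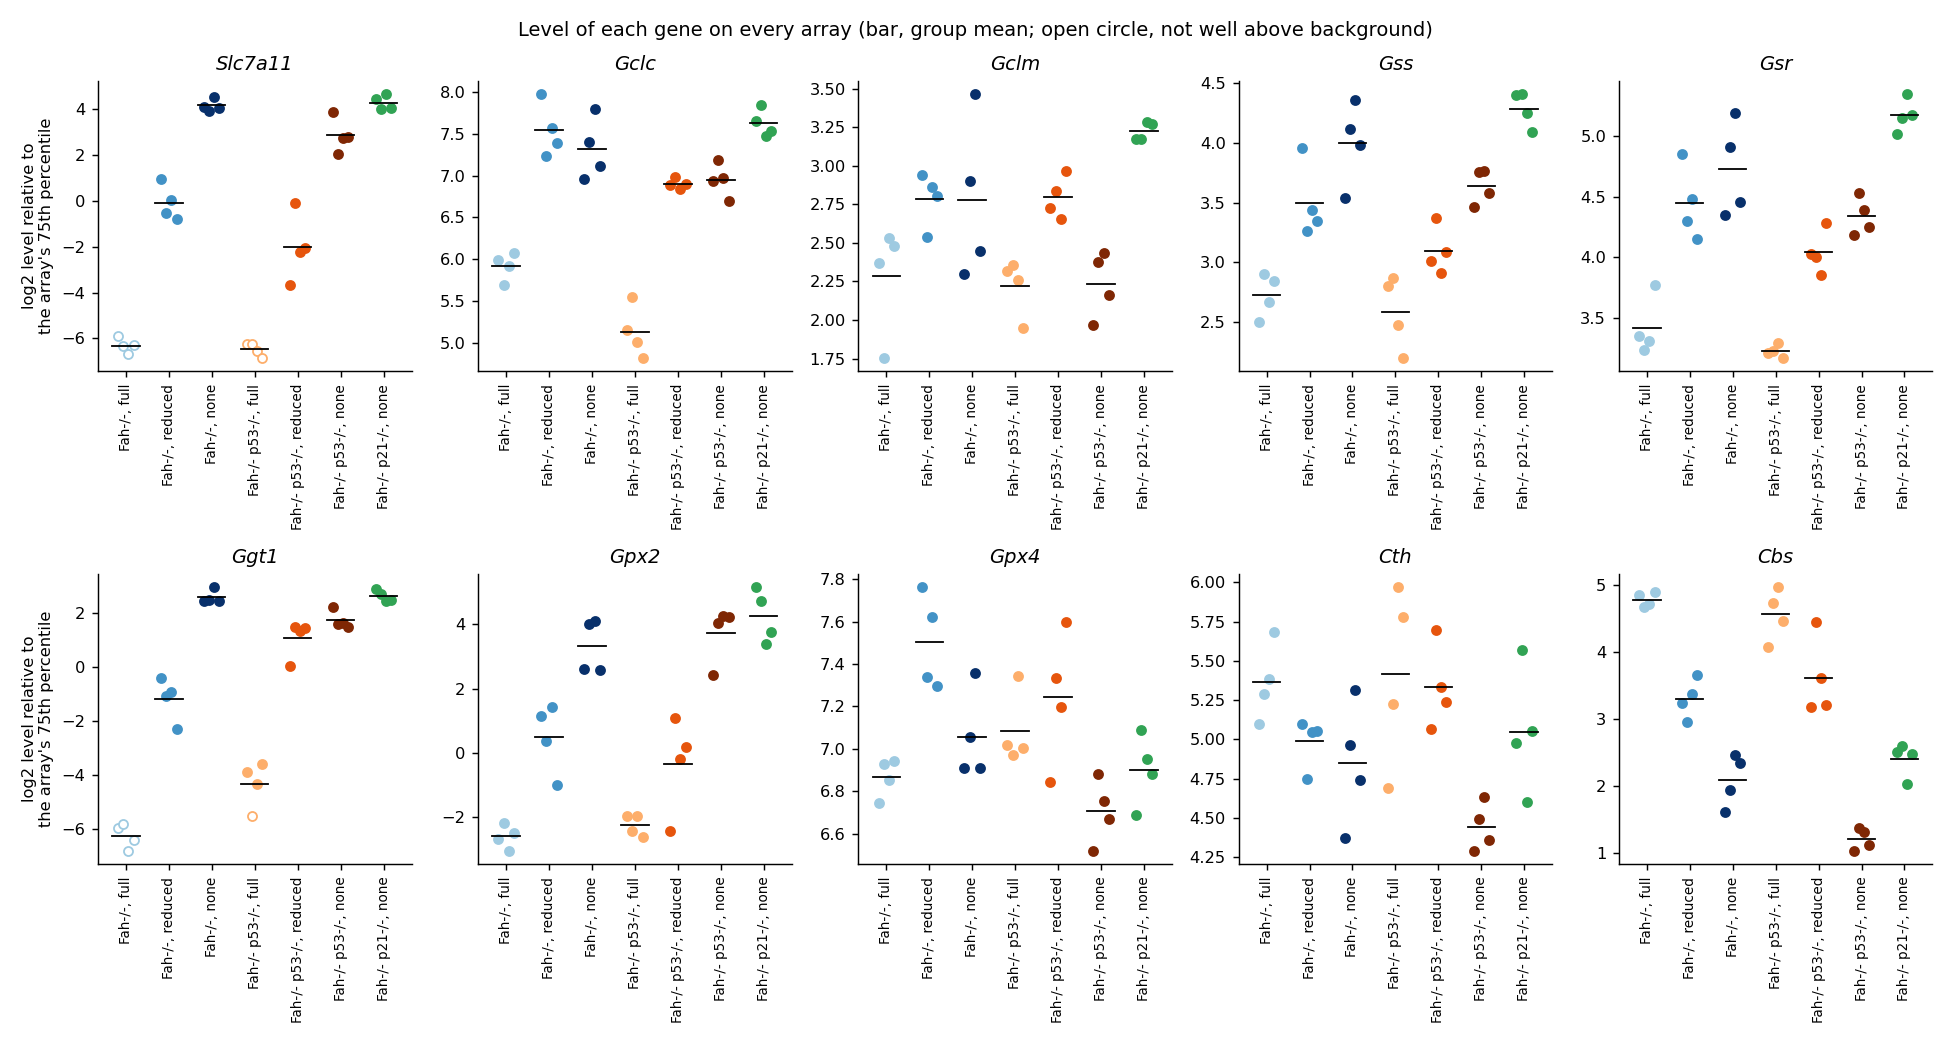
Level of the 10 genes on each of the 28 arrays, in log2 units relative to the array's 75th percentile, with 4 arrays per group, a bar at the group mean and open circles for arrays on which the probe was not well above background; the vertical axes differ between panels. Slc7a11 lies between -6.86 and -5.91 on the 8 arrays with full NTBC and between 2.04 and 4.66 on the 12 with none, while Cbs runs the other way.

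Slc7a11 was below the detection limit on full NTBC and was bright with none. None of the 8 arrays with full NTBC was well above background, with readings of -6.86 to -5.91, while all 20 arrays on reduced or no NTBC were. On reduced NTBC the Fah-/- arrays read 0.97, -0.52, 0.04 and -0.78. The Fah-/- p53-/- arrays read -3.65, -0.10, -2.23 and -2.06 at that dose. With no NTBC the Fah-/- arrays read 4.12, 3.93, 4.56 and 4.07, the Fah-/- p53-/- arrays 3.90, 2.04, 2.73 and 2.77, and the Fah-/- p21-/- arrays 4.44, 4.01, 4.66 and 4.05. The 3 doses therefore did not overlap within either genotype.

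Because the full-dose groups lay below background, their folds are lower bounds: the mean of the bright group against the lowest signal that counted as well above background on the dim arrays. On reduced NTBC Slc7a11 was at least 20-fold higher in Fah-/- livers (adjusted p 2.57e-09) and at least 5.63-fold higher in Fah-/- p53-/- livers (3.64e-07). With no NTBC it was at least 377-fold higher in Fah-/- (3.26e-14) and at least 164-fold higher in Fah-/- p53-/- livers (1.38e-13). Each adjusted p given beside a bound, here and below, belongs to the fitted difference. That fit used the readings below background and does not test the bound. The bounds depend on the scaling. After normexp correction they were 4.32, 1.03, 70.2 and 15.2, and from the deposited values 5.28, 2.27, 90.6 and 36.5. The rise on reduced NTBC in Fah-/- p53-/- livers was not called after normexp (adjusted p 0.878).

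From reduced to no NTBC, where both groups were measured, Slc7a11 rose by a further 4.24 ± 0.49 in Fah-/- (adjusted p 1.14e-07) and by 4.87 ± 0.49 in Fah-/- p53-/- livers (1.5e-08). All 3 probes rose in each of these 6 dose comparisons, and this step was 2.10 to 4.24 in Fah-/- and 3.72 to 5.16 in Fah-/- p53-/- livers, depending on the probe.

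The partner subunit of xCT, Slc3a2, which brings the transporter to the membrane, was not called at the reduced dose. It differed by -0.13 ± 0.16 in Fah-/- (adjusted p 0.559) and by -0.28 ± 0.16 in Fah-/- p53-/- livers (0.171). With no NTBC it rose by 2.004 ± 0.16 (1.35e-10) and by 1.27 ± 0.16 (1.9e-07). Its mean level was 3.49 ± 0.09 (SD) on full, 3.36 ± 0.35 on reduced and 5.495 ± 0.20 with no NTBC in Fah-/- livers. Slc3a2 was singled out here after its values were seen.

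Gclc, the catalytic subunit that sets the rate of glutathione synthesis, had reached its higher level by the reduced dose. The Fah-/- arrays read 5.995, 5.68, 5.91 and 6.07 on full, 7.98, 7.24, 7.58 and 7.40 on reduced, and 6.97, 7.41, 7.80 and 7.12 with no NTBC. The Fah-/- p53-/- arrays read 5.15, 5.55, 5.004 and 4.81, then 6.89, 6.98, 6.84 and 6.90, then 6.94, 7.18, 6.97 and 6.69. Within each genotype both lower doses lay above full dose on all arrays and overlapped each other. The rise from full to reduced NTBC was 1.63 ± 0.17 in Fah-/- (adjusted p 2.07e-07) and 1.77 ± 0.17 in Fah-/- p53-/- livers (7.93e-08), and that to no NTBC 1.41 ± 0.17 (1.55e-07) and 1.82 ± 0.17 (2.47e-09).

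Between reduced and no NTBC Gclc differed by -0.22 ± 0.17 (adjusted p 0.263) and 0.04 ± 0.17 (0.838). This step turns with the scaling: under quantile normalization it was 0.40 (0.0257) in Fah-/- and 0.54 (0.00368) in Fah-/- p53-/- livers.

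Gclm, the modifier subunit that eases feedback by glutathione on the ligase, changed by small steps. In Fah-/- livers it read 2.37, 1.75, 2.53 and 2.48 on full, 2.94, 2.54, 2.86 and 2.81 on reduced, and 2.30, 2.90, 3.46 and 2.45 with no NTBC. The groups with full and with no NTBC overlapped. The rise was 0.50 ± 0.19 on reduced (adjusted p 0.0397) and 0.50 ± 0.19 with no NTBC (0.0248). Without p53 it rose by 0.57 ± 0.19 on reduced NTBC (0.0202) and was back at 0.01 ± 0.19 with none (0.951), a fall of 0.56 ± 0.19 from reduced to none (0.0146).

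The calls on Gclm rest on few arrays and on the choice of fit. That of Fah-/- livers on reduced NTBC was lost without Fah-/- full-dose replicate 1 or 2 or reduced-dose replicate 1, 3 or 4 (adjusted p 0.0543 to 0.186), and that with no NTBC without full-dose replicate 2 or no-NTBC replicate 2 or 3 (0.0595 to 0.162). For Fah-/- p53-/- livers the rise on reduced NTBC was lost without reduced-dose replicate 4 (0.0603) or full-dose replicate 4 (0.0676). The fall from reduced to no NTBC was not called after normexp (0.0713) or from the deposited values (0.0804), and the rise in Fah-/- livers on reduced NTBC was not called after normexp (0.192). That rise was also not called without a filter on dim probes (0.0622), in a fit of the groups compared (0.0533) or with slide as a random block (0.0506). The rise in Fah-/- livers with no NTBC was not called in a fit of the groups compared (0.142).

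Gss, which adds glycine as the last step of synthesis, rose by steps. The Fah-/- arrays read 2.50, 2.90, 2.67 and 2.85 on full, 3.96, 3.26, 3.44 and 3.35 on reduced, and 3.54, 4.12, 4.36 and 3.98 with no NTBC. The lower doses lay above full dose and overlapped each other. The change from full dose was 0.77 ± 0.17 on reduced (adjusted p 0.00118) and 1.27 ± 0.17 with no NTBC (7.7e-07). The same changes were 0.51 ± 0.17 (0.024) and 1.05 ± 0.17 (1.05e-05) in Fah-/- p53-/- livers, and no array on full NTBC reached those on the lower doses. The call at the reduced dose in Fah-/- p53-/- livers was lost without reduced-dose replicate 2 (0.0868) or full-dose replicate 3 (0.0587) or 4 (0.101).

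Gsr, the enzyme that returns oxidized glutathione to its working form, rose in all 4 comparisons with full dose. The Fah-/- arrays read 3.35, 3.23, 3.30 and 3.77 on full, 4.86, 4.30, 4.48 and 4.15 on reduced, and 4.35, 4.91, 5.19 and 4.46 with no NTBC. The rises were 1.04 ± 0.16 on reduced (adjusted p 3.08e-05) and 1.31 ± 0.16 with no NTBC (1.98e-07). They were 0.82 ± 0.16 (0.000394) and 1.12 ± 0.16 (2.12e-06) in Fah-/- p53-/- livers. All lower-dose arrays lay above all full-dose arrays of their genotype. Its 3 probes disagree on size: with no NTBC they gave 1.17 to 2.15 in Fah-/- and 0.99 to 2.40 in Fah-/- p53-/- livers, and only the probe with the largest change was called between reduced and no NTBC (1.07 and 1.12).

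**Figure D2:**
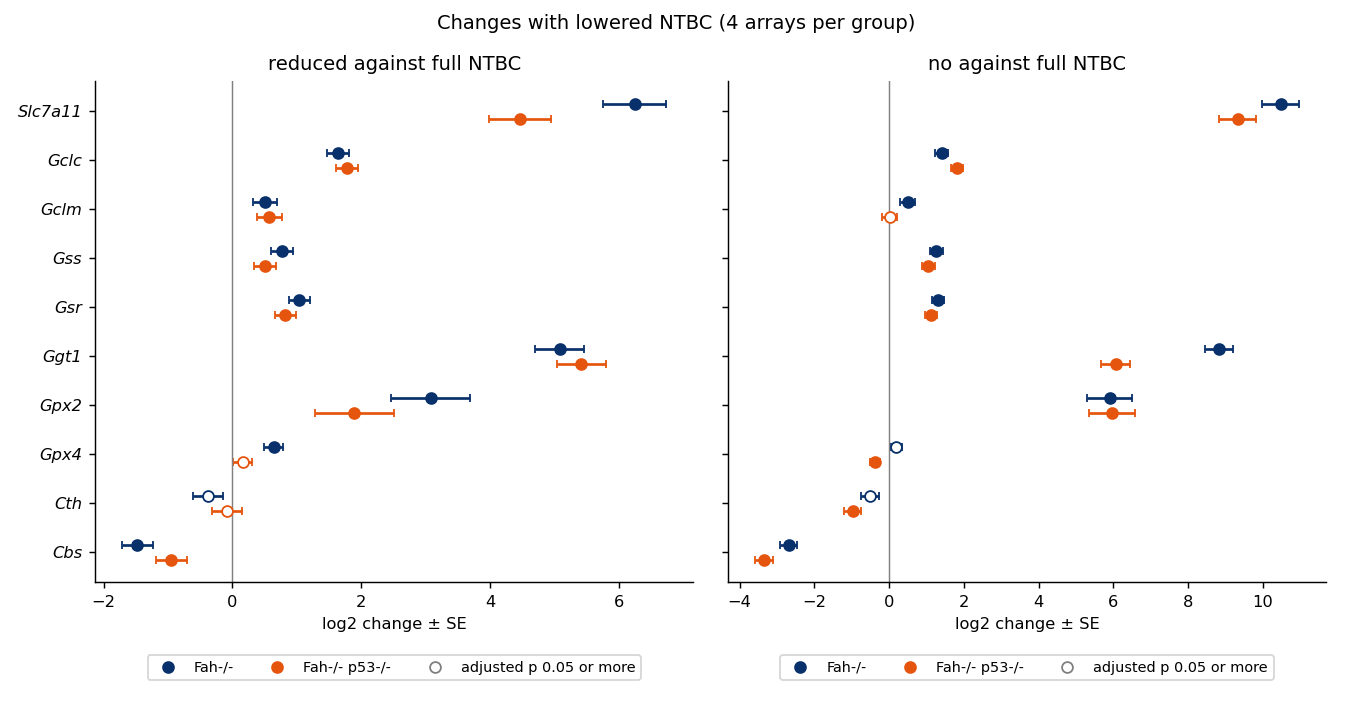
Change of the 10 genes with reduced (left) and no (right) against full NTBC as log2 change ± SE, for Fah-/- and Fah-/- p53-/- livers with 4 arrays per group, open where the adjusted p was 0.05 or more; the horizontal scales differ. For Slc7a11 in both genotypes and Ggt1 in Fah-/- livers full dose was not above background, so those points are fitted differences and not measured folds; Gclc lies at 1.41 to 1.82 in all 4 comparisons and Cbs is the gene below 0 with an adjusted p under 0.05 in all 4.

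Gpx2, the peroxidase of gut and bile duct lining that is known to be induced in liver by oxidants, went from dim to bright. The Fah-/- arrays read -2.67, -2.16, -3.04 and -2.49 on full, 1.15, 0.36, 1.44 and -1 on reduced, and 2.61, 3.99, 4.08 and 2.57 with no NTBC. The Fah-/- p53-/- arrays read -1.94, -2.42, -1.94 and -2.61 on full, -2.41, 1.08, -0.19 and 0.18 on reduced, and 2.43, 4.04, 4.26 and 4.21 with no NTBC. The doses did not overlap in Fah-/- livers, whereas in Fah-/- p53-/- livers replicate 1 on reduced NTBC read like the full dose. Gpx2 rose by 3.08 ± 0.61 on reduced (adjusted p 0.000342) and 5.90 ± 0.61 with no NTBC (9.66e-09) in Fah-/- livers.

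Without p53 Gpx2 rose by 1.89 ± 0.61 (adjusted p 0.0164) and 5.96 ± 0.61 (7.72e-09). The call at the reduced dose was lost after normexp (0.67, adjusted p 0.269), with the deposited values (0.0593), and without reduced-dose replicate 2 (0.0782) or 4 (0.0501).

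Gpx4, the selenoenzyme that reduces lipid peroxides, depends on the scaling in 3 of its 4 comparisons with full dose. In Fah-/- livers it read 6.74, 6.93, 6.85 and 6.94 on full, 7.76, 7.34, 7.62 and 7.30 on reduced, and 6.91, 7.06, 7.36 and 6.91 with no NTBC. It rose by 0.64 ± 0.14 on reduced NTBC (adjusted p 0.00119), where the groups did not overlap. With no NTBC it differed by 0.19 ± 0.14 (0.241). Without p53 it differed by 0.16 ± 0.14 on reduced (0.4) and by -0.38 ± 0.14 with no NTBC (0.0231). In Fah-/- livers with no NTBC quantile normalization gave 1.11 (4.58e-08) and the deposited values 1.01 (3.56e-06), and in Fah-/- p53-/- livers on reduced NTBC normexp, quantile normalization and the deposited values gave 0.74 (0.0166), 0.60 (0.000741) and 0.67 (0.00159). The value of -0.38 turned to 0.09 after normexp (0.736), 0.52 with quantile normalization (0.000846) and 0.59 from the deposited values (0.00156). Under the last 2 scalings Gpx4 was thus called higher in all 4 comparisons. The call on -0.38 was lost without full-dose replicate 3 (0.0925) or no-NTBC replicate 1 (0.0723).

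Ggt1 followed Slc7a11 in Fah-/- livers. The Fah-/- arrays on full NTBC were not above background (-6.81 to -5.82). They read -0.42, -1.08, -0.92 and -2.30 on reduced and 2.45, 2.48, 2.96 and 2.42 with no NTBC. The Fah-/- p53-/- arrays read -3.90, -5.53, -4.34 and -3.60 on full, where replicate 2 was not above background, 0.03, 1.46, 1.33 and 1.45 on reduced, and 2.21, 1.57, 1.61 and 1.48 with no NTBC. The doses were far apart in Fah-/- livers, while in Fah-/- p53-/- livers reduced and no NTBC nearly met.

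With p53 intact, Ggt1 was at least 9.25-fold higher on reduced NTBC (adjusted p 1.38e-09) and at least 125-fold higher with none (1.48e-14), with bounds of 2.28 and 25 after normexp and of 2.8 and 29.6 from the deposited values. It rose by 5.41 ± 0.38 (1.06e-09) and 6.06 ± 0.38 (2.82e-12) in Fah-/- p53-/- livers, values that were 2.12 and 2.77 after normexp and 3.11 and 3.86 from the deposited values, all called. The step from reduced to no NTBC was 3.76 ± 0.38 in Fah-/- livers (1.95e-08) and 0.65 ± 0.38 in Fah-/- p53-/- livers (0.146), where the deposited values gave 0.76 and a call (0.00482).

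Cbs, the first enzyme of transsulfuration, fell with each lowering of the dose. The Fah-/- arrays read 4.84, 4.66, 4.71 and 4.89 on full, 3.23, 2.95, 3.37 and 3.65 on reduced, and 1.62, 1.93, 2.46 and 2.34 with no NTBC. The Fah-/- p53-/- arrays read 4.07, 4.73, 4.97 and 4.46, then 3.18, 4.45, 3.60 and 3.21, then 1.03, 1.37, 1.30 and 1.12. In both genotypes all arrays with no NTBC lay below all others, and at the reduced dose only replicate 2 of Fah-/- p53-/- reached the full-dose range. Against full dose Cbs changed by -1.47 ± 0.24 on reduced (adjusted p 3.34e-05) and -2.69 ± 0.24 with no NTBC (6.72e-10) in Fah-/- livers. Without p53 it changed by -0.95 ± 0.24 (0.00268) and -3.35 ± 0.24 (1.58e-11), of which the first was not called after normexp (-0.39, adjusted p 0.144).

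Cth, which completes transsulfuration by releasing cysteine, changed less than Cbs. In Fah-/- livers it read 5.10, 5.29, 5.39 and 5.68 on full, 5.10, 4.75, 5.05 and 5.06 on reduced, and 4.37, 4.97, 5.31 and 4.74 with no NTBC, and the 3 ranges overlapped. The differences from full dose were -0.38 ± 0.24 (adjusted p 0.215) and -0.52 ± 0.24 (0.0553). The second was called in 5 of 18 other settings, among them without full-dose replicate 1 (0.0413) or no-NTBC replicate 3 (0.0196). Over those settings the first ran from -0.47 to 0.01 and the second from -0.67 to 0.12. From the deposited values their adjusted p was 0.979 and 0.636. In Fah-/- p53-/- livers it differed by -0.08 ± 0.24 on reduced NTBC (0.804, but 0.64 and called after normexp, 0.0454) and fell by 0.97 ± 0.24 with none (0.000825), and no array overlapped. This fall was not called after normexp (-0.52, 0.0957), quantile normalization (-0.40, 0.0957) or with the deposited values (-0.40, 0.105).

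The step from reduced to no NTBC separated the set. In Fah-/- livers 4 genes rose (Slc7a11, Gss, Ggt1 and Gpx2) and 2 fell (Cbs and Gpx4), beside 26.1% and 38.1% of all features. Without p53 3 rose (Slc7a11, Gss and Gpx2) and 4 fell (Gclm, Cbs, Cth and Gpx4), beside 23.2% and 38.1%. Cbs fell by 1.22 ± 0.24 in Fah-/- (adjusted p 0.000109) and by 2.41 ± 0.24 in Fah-/- p53-/- livers (1.07e-08). Gss rose by 0.50 ± 0.17 (0.0155) and 0.55 ± 0.17 (0.00898). The first of these calls was lost without no-NTBC replicate 3 (0.071) or reduced-dose replicate 2 (0.0576), and in a fit of the groups compared (0.066). The second was lost after normexp (0.34, adjusted p 0.26), as was the call on Gclm in the same livers (0.0713). The counts move with the scaling: quantile normalization gave 6 and 1 in Fah-/- and 5 and 3 in Fah-/- p53-/- livers, the deposited values 5 and 1, and 6 and 2, and normexp 4 and 1 in Fah-/- livers. The fall of Gpx4 in Fah-/- livers turned to 0.17 with quantile normalization and 0.006 with the deposited values. In Fah-/- p53-/- livers it was -0.08 and -0.07 under these scalings and was not called.

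Fah-/- p53-/- livers were set against Fah-/- livers at each dose. With 10 genes, the counts called are too small to set them apart from all features. On full NTBC 1 gene was higher (Ggt1) and 1 lower (Gclc) in Fah-/- p53-/- than in Fah-/- livers, beside 6.34% and 7.59% of all features. On reduced NTBC 1 was higher (Ggt1) and 2 were lower (Slc7a11 and Gclc), beside 9.84% and 5.8%. With no NTBC 0 were higher and 1 was lower (Cbs), beside 7.65% and 6.6%. Normexp gave 0 higher and 2 lower on full and 1 and 0 on reduced NTBC, and the deposited values 0 and 1, and 1 and 1.

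Gclc was lower without p53 on full NTBC by 0.79 ± 0.17 (adjusted p 0.00333), with no array overlapping. On reduced NTBC its difference was -0.64 ± 0.17 (0.0133), again with no overlap. That call was lost after normexp (0.345), with the deposited values (0.0525) and without Fah-/- reduced-dose replicate 1 (0.0644). With no NTBC the difference was -0.38 ± 0.17 (0.153). No difference between the genotypes in its response to lowered NTBC was called, at 0.14 ± 0.25 (0.764) for reduced and 0.41 ± 0.25 (0.317) for no NTBC, with 95% intervals of -0.37 to 0.65 and -0.10 to 0.92.

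Slc7a11 was lower without p53 on reduced NTBC by 1.94 ± 0.49 (adjusted p 0.00856), although the ranges overlapped because Fah-/- p53-/- replicate 2 read -0.10. The other probes gave -2.15 and -2.35. The call was lost after normexp (-1.33, adjusted p 0.285) and in a fit of these 8 arrays alone (0.0871). With no NTBC the difference was -1.31 ± 0.49 (0.073), with no overlap, and it was called without Fah-/- p53-/- replicate 1 (-1.66, 0.0261) and from the deposited values (-1.37, 0.0112). The 2 arrays of each genotype that shared a slide differed by -1.28, with no test. On reduced NTBC the genotypes' responses differed by -1.78 ± 0.69 (0.1), and by -2.42 without Fah-/- p53-/- replicate 2 (0.00997), where full dose lay below background in both. With no NTBC all 4 arrays without p53 were female and the Fah-/- arrays male, so genotype and sex cannot be told apart in that comparison.

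Ggt1 was the gene for which p53 loss went with a higher level at the 2 doses of NTBC given. On reduced NTBC it was higher by 2.25 ± 0.38 (adjusted p 0.00039), and no array overlapped. On full NTBC the fitted difference was called (0.00141), but Fah-/- livers were not above background and the bound was at least 1.03-fold (1.83 after normexp and 1.13 from the deposited values). That call was lost after normexp (0.0621) and with the deposited values (0.545). With no NTBC the order was the other way, at -0.86 ± 0.38 (0.138), and the arrays did not overlap. This difference was called in 3 of 18 other settings. These were the deposited values (-0.85, 0.0111), a fit of the groups compared (0.04) and slide as a fixed block (-0.99, 0.0408). Genotype and sex cannot be told apart in it.

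The rise of Ggt1 from full to no NTBC was smaller without p53 by 2.77 ± 0.54 (adjusted p 0.00226 for the interaction, beside 9.12% of all features called in either direction). It rests on the unmeasured full-dose level of Fah-/- livers and on no-NTBC arrays that were female without p53 and male with it. It was -1.95 after normexp (0.0322) and -1.09 from the deposited values (0.0273), and -2.52 to -3.17 when each array was left out in turn. For reduced NTBC the interaction was 0.34 ± 0.54 (0.746), where limma called 0 of the 10 genes (2 at an unadjusted p under 0.05, Slc7a11 and Gpx4) and 10.4% of all features, and the deposited values gave 1.56 for Ggt1 (0.00239).

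Cbs was lower without p53 once NTBC was withdrawn. With no NTBC it was lower than in Fah-/- livers by 0.88 ± 0.24 (adjusted p 0.015), and no array overlapped. The call was lost without Fah-/- replicate 3 (0.0586) or 4 (0.0518) and with slide as a fixed block (-0.87, 0.0761). The 2 and 2 arrays on 1 slide, again female against male, differed by -0.56. The interaction did not pass the test (-0.66 ± 0.33, adjusted p 0.224).

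With no NTBC, loss of p53 and loss of p21, a cell cycle inhibitor that p53 induces, can be set side by side. Fah-/- p21-/- livers differed from Fah-/- livers in 0 of the 10 genes by limma, where 3.94% of all features were higher and 3.59% lower. At an unadjusted p under 0.05 it was 2, Gclm (0.45 ± 0.19, adjusted p 0.161) and Gsr (0.45 ± 0.16, 0.0983). Both were called without Fah-/- replicate 3 (0.0178 and 0.0239), and Gsr with quantile normalization (0.0454). For Slc7a11 the difference was 0.12, with a 95% interval of -0.89 to 1.12, and for Gpx2 0.94, with an interval of -0.32 to 2.20.

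Between Fah-/- p53-/- and Fah-/- p21-/- livers, 5 genes were lower without p53 (Gclc, Gclm, Gss, Gsr and Cbs) and 0 were higher, beside 5.96% and 5.04% of all features. The 4 Fah-/- p21-/- arrays read 3.17, 3.18, 3.28 and 3.27 for Gclm, and the Fah-/- p53-/- arrays 1.97, 2.38, 2.43 and 2.16. The differences were -0.99 ± 0.19 for Gclm (adjusted p 0.00166), -0.84 ± 0.16 for Gsr (0.00186), -1.19 ± 0.24 for Cbs (0.00194), -0.68 ± 0.17 for Gclc (0.0125) and -0.65 ± 0.17 for Gss (0.0174). The arrays did not overlap for any of the 5. For Slc7a11 the difference was -1.43 ± 0.49 (0.0604), called without Fah-/- p53-/- replicate 1 (-1.77, 0.0167) and from the deposited values (0.00776).

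On the slide that held replicates 1 and 2 of both genotypes, all female, the differences were -1.001 for Gclm, -0.73 for Gsr, -1.35 for Cbs, -0.69 for Gclc and -0.80 for Gss, with no overlap and no test. With slide as a fixed block over 12 arrays none of the 5 was called (adjusted p 0.0637 to 0.224). Against the male Fah-/- p21-/- arrays alone Gclc (0.117) and Gss (0.142) were not called. Gclc and Gss also fell short without Fah-/- p53-/- replicate 4 (0.0562 and 0.0506).

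**Figure D3:**
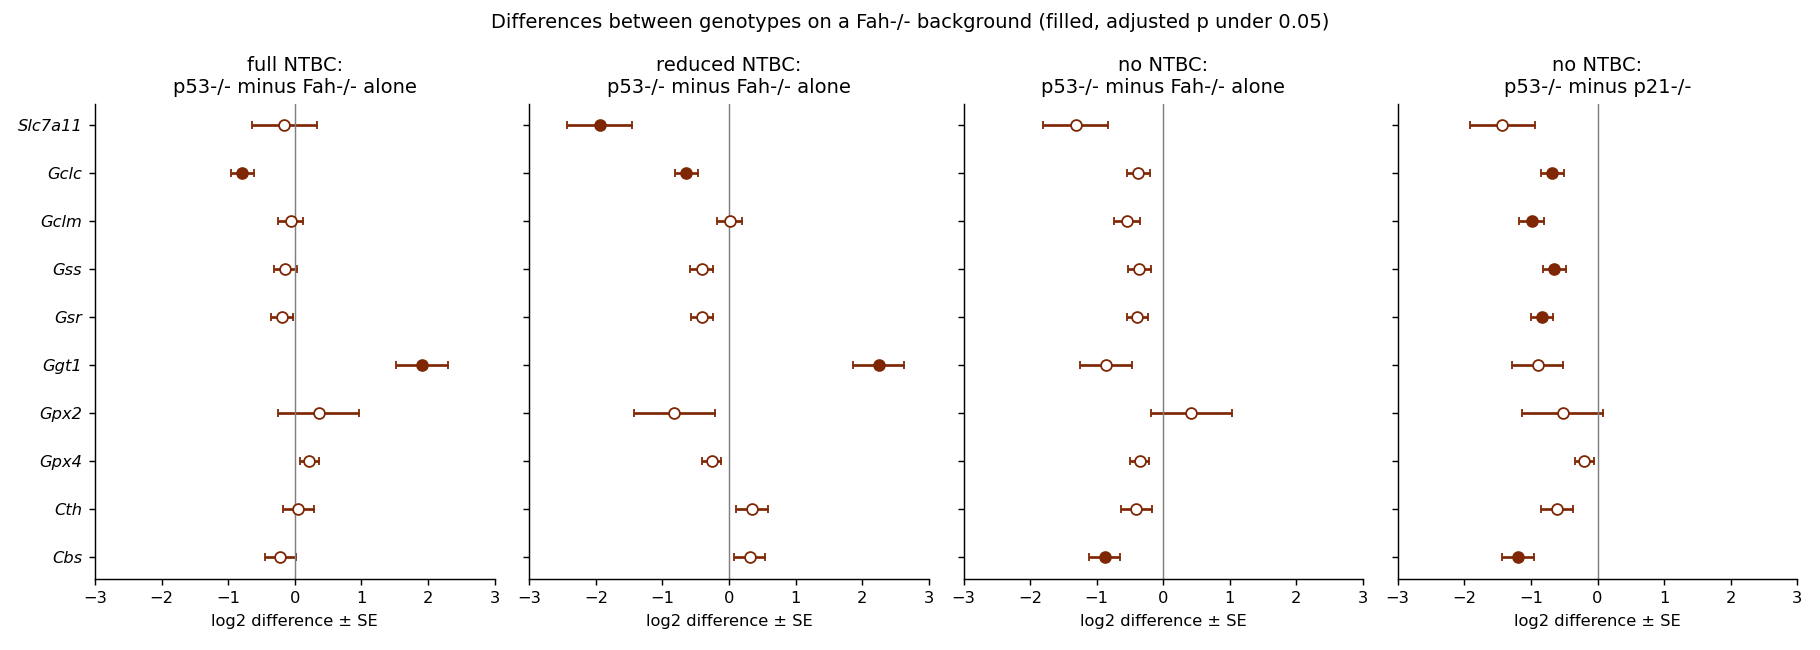
Difference between genotypes in log2 level ± SE for the 10 genes, from left to right p53 loss on full, reduced and no NTBC and p53 loss against p21 loss with no NTBC, all on a Fah-/- background with 4 arrays per group, filled where the adjusted p was under 0.05. Gclc lies below 0 in all 4 panels, and in the right panel the filled points are Gclc, Gclm, Gss, Gsr and Cbs; Slc7a11 on full NTBC was not above background in either genotype.

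Ordered by mean level, the 3 groups with no NTBC stood highest for Slc7a11, Gss, Ggt1 and Gpx2, and lowest for Cbs. For Slc7a11 the order was Fah-/- p21-/- (4.29 ± 0.32, SD), Fah-/- (4.17 ± 0.27) and Fah-/- p53-/- (2.86 ± 0.77) with no NTBC, Fah-/- (-0.07 ± 0.78) and Fah-/- p53-/- (-2.01 ± 1.46) on reduced NTBC, and then both full-dose groups below background. The ranges of the first 2 overlapped, as did those of the reduced-dose groups. For Ggt1 the order was Fah-/- p21-/- (2.62 ± 0.21), Fah-/- (2.58 ± 0.25), Fah-/- p53-/- with none (1.72 ± 0.33) and on reduced NTBC (1.07 ± 0.70), and Fah-/- on reduced NTBC (-1.18 ± 0.80). The first 2 overlapped, and the nearest arrays of the next 2 read 1.48 and 1.46. For Gpx2 the order was Fah-/- p21-/- (4.26 ± 0.81), Fah-/- p53-/- (3.74 ± 0.88) and Fah-/- (3.32 ± 0.84) with no NTBC, and all 3 ranges overlapped. For Gclm the Fah-/- p21-/- arrays stood highest at 3.23 ± 0.06, and only Fah-/- replicate 3 with no NTBC (3.46) reached them.

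Over the 7 group means the levels of several members ran in parallel. Pearson's r was 0.98 between Slc7a11 and Gpx2, 0.97 between Slc7a11 and Gss, 0.98 between Gss and Gsr and 0.77 between Gclc and Gclm. It was -0.92 between Slc7a11 and Cbs and 0.93 between Cbs and Cth. These are descriptions of 7 means that share arrays, dose and scan year. Among 14564 other genes with a symbol, the closest to Slc7a11 by the same r were Ddit4l, Fndc10 and Nkiras1 (0.996 to 0.997). Those closest to Ggt1 were Plaat1, Gmds and Pcdhac2 (0.992 to 0.994), to Gpx2 Snx10, Gna13 and Ydjc (0.995 to 0.999), to Gss Mpp5, 1700007K13Rik and Tuba1c (0.993 to 0.995), and to Cbs Olfr549, Mrps18c and Itih2 (0.994 to 0.996). Gsr was closest to Entpd5, Ugp2 and Pgd (0.988 to 0.993), and Pgd, an NADPH-producing enzyme of the pentose phosphate pathway, is also in the list of other genes of cysteine and glutathione metabolism. For Gclc (Yaf2, Rab2a, Cct6b), Gclm (Mylpf, Celf4, Peli1), Cth (Zc3h12a, Map3k11, Xkr8) and Gpx4 (Mrc1, Fgfr1op2, 9230114K14Rik) r was 0.970 to 0.986.

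The rest of cysteine and glutathione metabolism was followed through a list of 77 further genes, of which 76 were on the array and 74 were tested. With reduced against full NTBC 17 rose and 14 fell in Fah-/- livers and 17 rose and 21 fell in Fah-/- p53-/- livers. With no against full NTBC 28 rose and 33 fell (median change -0.15) and 25 rose and 30 fell (-0.11), beside the shares of all features given above. Quantile normalization gave 34 and 25 in Fah-/- and 30 and 25 in Fah-/- p53-/- livers with no NTBC, and the deposited values 33 and 24, and 30 and 24. Which side was larger in the list therefore depends on the scaling. Of the 61 and 55 genes called with no NTBC, 47 and 44 kept their call and direction under normexp, quantile normalization and the deposited values. On reduced NTBC 13 of 31 and 16 of 38 did.

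Carriers of the precursors rose most. With no NTBC 5 of 8 transport genes rose and 0 fell in Fah-/- livers (median change 2.56), and 7 rose and 1 fell in Fah-/- p53-/- livers (1.95). Slc1a4, a carrier of neutral amino acids that include cysteine, rose by 5.31 ± 0.32 (adjusted p 1.46e-12) and 4.32 ± 0.32 (3.87e-11). Slc1a1, a glutamate carrier that also takes up cysteine, rose by 4.93 ± 0.35 (2.42e-11) and 4.54 ± 0.35 (8.24e-11). It had risen by the reduced dose, by 4.30 ± 0.35 (5.08e-09) and 4.18 ± 0.35 (1.02e-08) there. Slc7a9, the cystine exchanger of the kidney, was not above background on Fah-/- arrays on reduced NTBC and was at least 8.22-fold higher with none (1.77e-07), with bounds of 2.42 after normexp and 2.45 from the deposited values. Its partner Slc3a1 fell by 2.59 ± 0.33 in Fah-/- p53-/- livers (2.93e-07) and differed by -0.27 ± 0.33 in Fah-/- livers (0.474), a difference in response of -2.32 ± 0.47 (0.00303) that did not hold under all 3 other scalings.

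Of 5 genes of glutathione transport, the 3 exporters of glutathione and its conjugates (Abcc1, Abcc2 and Abcc4) rose with no NTBC in each genotype, and of the 2 mitochondrial carriers Slc25a39 fell and Slc25a40 was not called. Abcc4, which carries glutathione with bile acids out of hepatocytes, rose by 4.66 ± 0.28 on reduced (adjusted p 3.13e-11) and 4.25 ± 0.28 with no NTBC (5.02e-12) in Fah-/- livers. Its rises without p53 were 4.59 ± 0.28 (5.64e-11) and 3.78 ± 0.28 (3.09e-11). Of 11 genes of a list of peroxidases and glutaredoxins, which also holds the glyoxalases Glo1 and Hagh and the esterase Esd, 8 rose and 3 fell in Fah-/- and 6 rose and 3 fell in Fah-/- p53-/- livers with no NTBC. The 3 that fell were Gpx1, Glo1 and Hagh in both. In Fah-/- livers Gpx1 was not called with quantile normalization (adjusted p 0.164) or the deposited values (0.539). Neither was Hagh (0.0871 and 0.0769), while Glo1 kept its call. Gpx3, a secreted peroxidase, rose by 3.96 ± 0.31 (8.93e-11) and 3.92 ± 0.31 (9.51e-11) with no NTBC but differed by -0.40 (0.314) and 0.51 (0.196) at the reduced dose. Among 8 genes of NADPH supply 4 rose and 3 fell, and 3 rose and 3 fell. G6pdx, which opens the pentose phosphate pathway, rose by 2.36 ± 0.32 from reduced to no NTBC in Fah-/- p53-/- livers (1.19e-06).

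Most genes of cysteine breakdown fell. With no NTBC 7 of 8 genes of cysteine catabolism and sulfur oxidation fell in Fah-/- livers (median change -1.68) and 6 of 8 in Fah-/- p53-/- livers (-1.55), with 0 higher. Of all features 41.6% and 40.1% fell. In Fah-/- livers Csad was not called with quantile normalization (adjusted p 0.111) or the deposited values (0.054). Under these scalings Ethe1 turned to 0.12 and 0.17, and Sqor was called higher, by 0.55 (0.000253) and 0.51 (0.000596). Tst and Mpst, which move sulfur from thiosulfate and mercaptopyruvate, had fallen by the reduced dose, by 1.55 ± 0.11 (adjusted p 9.91e-10) and 1.24 ± 0.14 (5.68e-07) in Fah-/- livers. Suox, the sulfite oxidase, and Got1, the cytosolic aspartate aminotransferase, fell in Fah-/- livers with no NTBC, by 2.66 ± 0.28 (1.21e-08) and 2.54 ± 0.28 (2.39e-08). In the methionine cycle 5 of 10 fell and 3 rose in Fah-/-, and 5 fell and 2 rose in Fah-/- p53-/- livers. Gnmt, the main consumer of methyl groups in liver, fell by 3.26 ± 0.30 (1.45e-09) and 3.70 ± 0.30 (1.63e-10). Mat1a, the liver form of methionine adenosyltransferase, fell by 1.68 ± 0.27 (7.09e-06) and 3.12 ± 0.27 (4.87e-10). Ahcy, which makes the homocysteine that Cbs takes up, fell by 1.98 ± 0.21 from reduced to no NTBC in Fah-/- p53-/- livers (2.5e-08).

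Other genes of glutathione breakdown moved in both directions. Of 11 tested 3 rose and 6 fell in Fah-/- and 1 rose and 5 fell in Fah-/- p53-/- livers with no NTBC. Chac1, which splits glutathione inside the cell and is induced by Atf4, fell by 2.34 ± 0.57 from reduced to no NTBC in Fah-/- livers (adjusted p 0.00104). Of 6 genes of selenoprotein synthesis 0 rose and 5 fell in Fah-/-, and 1 rose and 5 fell in Fah-/- p53-/- livers. Of 7 regulators 2 rose and 3 fell in Fah-/-, and 2 rose and 1 fell in Fah-/- p53-/- livers. The 3 falls in Fah-/- livers depend on the scaling, since quantile normalization gave 3 higher and 0 lower there.

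**Figure D4:**
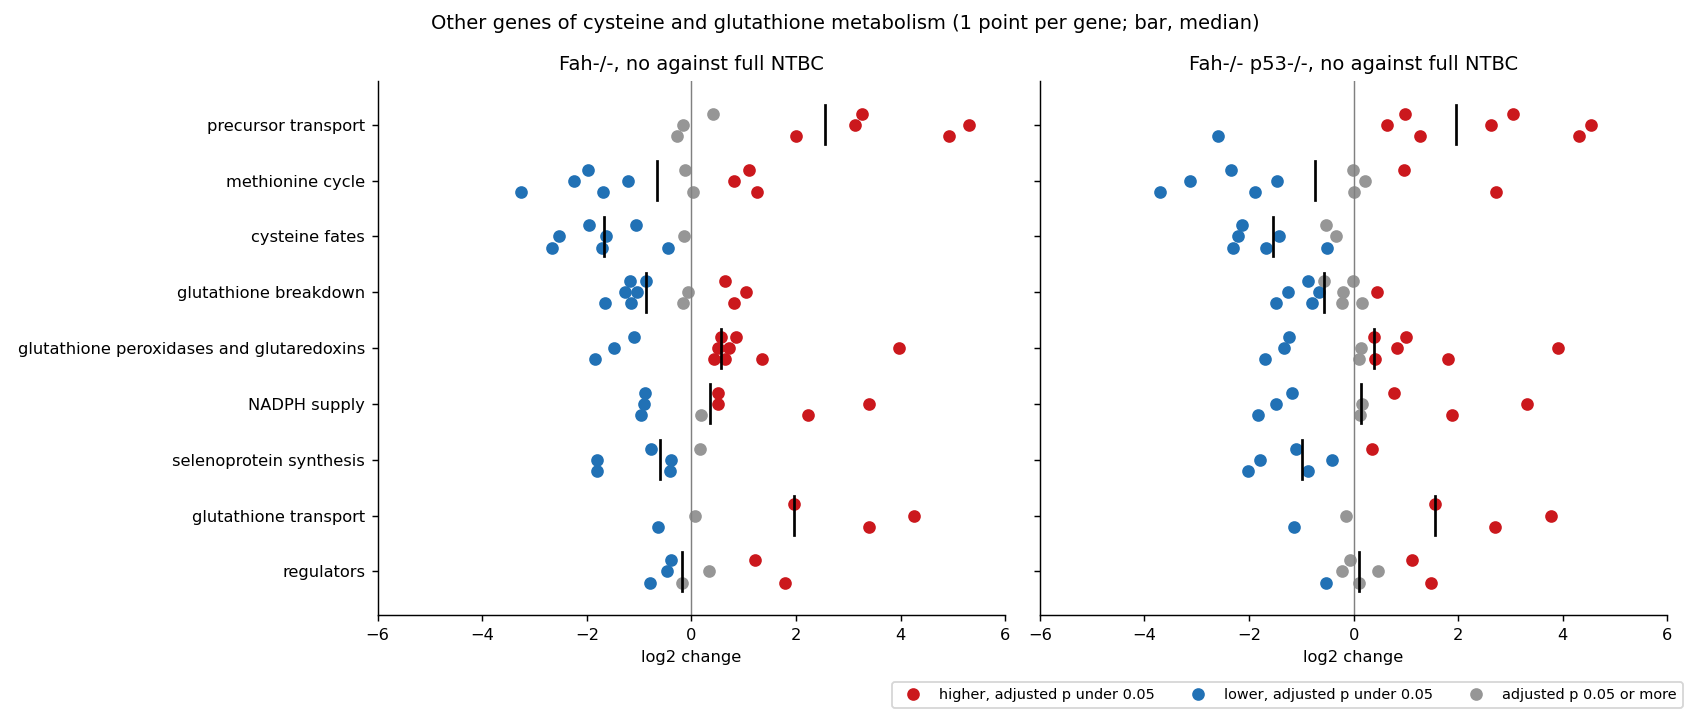
Change with no against full NTBC of the 74 other genes of cysteine and glutathione metabolism in Fah-/- (left) and Fah-/- p53-/- livers (right), 1 point per gene as log2 change, with a bar at the median of each group of genes and colour for an adjusted p under 0.05. Precursor transport (medians 2.56 and 1.95) and glutathione transport (1.97 and 1.56) lie to the right, and cysteine fates (-1.68 and -1.55) to the left; the group of peroxidases and glutaredoxins includes Glo1, Hagh and Esd.

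Between the genotypes with no NTBC, 3 genes of the list were higher and 17 lower in Fah-/- p53-/- than in Fah-/- p21-/- livers (median difference -0.21), beside 5.04% and 5.96% of all features. Of 8 genes of NADPH supply 6 were lower and 0 higher, with values of -1.38 ± 0.32 for G6pdx (adjusted p 0.0064), -0.95 ± 0.19 for Pgd (0.00225) and -0.81 ± 0.13 for Tkt (0.000347). Slc3a2 was lower by 0.82 ± 0.16 (0.00167), Glo1, the glyoxalase that uses glutathione, by 0.84 ± 0.14 (0.000539), and the exporter Abcc2 by 0.85 ± 0.15 (0.000653). Among those higher were Suox (1.13 ± 0.28, 0.01) and Anpep (0.84 ± 0.19, 0.00583). Of the 20 calls 10 kept their call and direction under all 3 other scalings, among them Slc3a2, G6pdx, Pgd, Tkt, Glo1 and Abcc2. Against Fah-/- livers with no NTBC the count was 3 higher and 8 lower without p53, and 6 higher and 1 lower without p21, none of which held under all 3 other scalings in the latter case.

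At the other doses p53 loss went with 6 genes of the list higher and 4 lower on full NTBC, and 4 higher and 8 lower on reduced NTBC, of 74 tested, beside 6.34% and 7.59% and 9.84% and 5.8% of all features. Of these calls 4 of 10 and 1 of 12 held under all 3 other scalings. On full NTBC Atf4, the amino acid stress factor, was lower by 0.52 ± 0.13 (adjusted p 0.0109) and Slc38a2, a glutamine carrier, by 0.78 ± 0.18 (0.00545). The 6 higher there were Slc1a5, Ggct, Ggt5, Dpep1, Idh2 and Sepsecs, of which Ggt5 (0.72 ± 0.19, 0.0109) held under all 3 other scalings. On reduced NTBC Chac1 was lower by 1.92 ± 0.57 (0.0231) and Trib3, a pseudokinase that Atf4 also induces, by 1.04 ± 0.27 (0.01), and the arrays did not overlap for either. Chac1 kept its call under all 3 other scalings and Trib3 did not. The 4 higher on reduced NTBC were Slc7a9, Slc1a5, Ggt5 and Idh2, none of which held. Atf4 was not called at that dose (-0.30, adjusted p 0.129), nor was the regulator Ddit3 (0.59, 0.0643).

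Marker genes of liver cell types moved with dose beside these changes. Their counts are to be read beside the shares of all features called in each comparison, given above. With no against full NTBC 29.3% of all features rose and 41.6% fell in Fah-/- livers, and 29.6% and 40.1% in Fah-/- p53-/- livers. All 8 hepatocyte markers fell with no NTBC in both genotypes, with summed levels of 2220 to 2650 on full and 695 to 806 with no NTBC in Fah-/- livers and of 2300 to 2430 and 626 to 690 in Fah-/- p53-/- livers, in units of the array's 75th percentile. Under the other scalings 6 or 7 of the 8 fell, with 1 higher in Fah-/- p53-/- livers from the deposited values and with quantile normalization. On reduced NTBC 6 fell in Fah-/- and 4 in Fah-/- p53-/- livers, where normexp gave 2 higher and 1 lower. Of 7 tested markers of bile duct and progenitor cells, which can express Ggt1 and Gpx2, 5 rose with no NTBC in each genotype (4 and 3 after normexp), with summed levels of 4.54 to 7.45 on full and 8.64 to 20.4 with no NTBC in Fah-/- livers and 4.88 to 8.89 and 6.39 to 23.5 in Fah-/- p53-/- livers. On reduced NTBC, where Ggt1 and Gpx2 had risen, 0 of these rose and 4 fell in Fah-/- livers (3.39 to 4.96), Krt19 went from -1.06 to -3.38 and Epcam was not above background. In Fah-/- p53-/- livers 1 rose and 3 fell (2.82 to 5.31).

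Of 8 macrophage markers 0 changed on reduced NTBC in either genotype and 8 and 7 rose with none, with sums of 45.8 to 76.2 on full and 83.4 to 369 with no NTBC in Fah-/- livers. All 5 cycling genes were higher without p53 on reduced NTBC (2 of them after normexp), beside 9.84% of all features. Their sums were 3.52 to 12.6 against 1.26 to 2.24. On full NTBC, where Gclc was lower without p53, 3 of 8 hepatocyte markers were lower (Ttr, Apoa1 and Serpina1c; 1 with quantile normalization) and 0 of 5 cycling genes were called, with cycling sums of 2.88 to 8.92 without p53 and 1.52 to 2.35 with it. With no NTBC p53 loss went with 2 hepatocyte markers (Ttr and Serpina1c) and 2 of 7 endothelial markers (Pecam1 and Kdr) lower and 3 of 5 cycling genes higher (1 after normexp), and p21 loss with 1 hepatocyte marker lower and 4 of 5 cycling genes higher (3 after normexp). The cycling sums there were 2 to 7.81 in Fah-/-, 3.12 to 28.8 in Fah-/- p53-/- and 8.47 to 28 in Fah-/- p21-/- livers. Between p53 loss and p21 loss with no NTBC 1 hepatocyte marker was lower and 0 of 5 cycling genes were called. In these whole-liver samples fewer cells of a type and less RNA per cell cannot be told apart, and the part of cell make-up in these results was not tested.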

How the data were processed

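Liver RNA of 28 mouse samples was measured, 1 per 1-colour Agilent array. Per the file headers Agilent Feature Extraction 10.7.3.1 read the slides (10.5 in the submitters' processing notes). The scanner output as deposited gives each spot's processed intensity, linear, background-subtracted and unscaled between arrays, its median intensities, and 0/1 flags (above background, saturated, uneven). A deposited matrix of log2 values served as an alternative: array medians of 6.89 to 6.912 are nearly equal, values follow the median intensity, and genes are not centred. How the authors made it is not stated in the labels.

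Here 1639 control spots and 100 uneven spot values were left out, leaving 87 of the probe values missing, none of a member. The log2 processed intensities of 43379 spots were averaged to 41174 probes, and the log2 75th percentile of each array was subtracted. A probe was kept if some group had it well above background in each of its 4 arrays (27509, and 13665 were not). Symbols came from RefSeq accessions (28462 probes matched, 12712 did not), and the brightest kept probe stood for a gene. Limma 3.58.1 (R 4.3.3) fitted 7 group means over 28 arrays with 21 residual degrees of freedom, and p-values were adjusted over 20303 features by Benjamini-Hochberg. With 4 arrays per group, array number limits the precision. On simulated data for reduced against full NTBC in Fah-/- livers, 66% of 100 changes of 1 and 97% of 100 changes of 2 log2 units were recovered, with 7 false calls among 20103.

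The members and lists were chosen with earlier results of these data known. The rule named all members, the 3 genes most like each, the 3 largest rises and falls of the pathway list per dose comparison, and its calls between genotypes, of which some are given as counts only. The alternatives were normexp (offset 50, on median intensities, since the planned mean intensities are not among the columns), quantile normalization, the deposited values, other filters, the probes' mean, smaller fits, blocks, and each array left out. Restriction by sex was added after the data were seen.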

Additional observations from a re-analysis of the deposited data

Results flagged for a closer look

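For 5 of the 70 sets of 4 arrays (10 genes in 7 groups), 1 array lay farther from the other 3 than Dixon's 95% limit for 4 samples allows, and chance alone gives about 1 in 20 such sets. Ggt1 in Fah-/- livers with no NTBC read 2.96 in replicate 3, above the other 3 at 2.42 to 2.48. Ggt1 in Fah-/- p53-/- livers on reduced NTBC read 0.027 in replicate 1, below the others at 1.33 to 1.46. Cth in Fah-/- livers on reduced NTBC read 4.75 in replicate 2, below the others at 5.05 to 5.10. Gpx2 in Fah-/- p53-/- livers with no NTBC read 2.43 in replicate 1, below the others at 4.04 to 4.26. Gpx4 in Fah-/- p53-/- livers on full NTBC read 7.34 in replicate 3, above the others at 6.97 to 7.02.

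The response of Ggt1 to the withdrawal of NTBC differed between the genotypes, by -2.77 ± 0.54 in Fah-/- p53-/- against Fah-/- livers (adjusted p 0.00226, limma interaction), with the limits on the full-dose level given above.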

How the results depend on the processing

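Most values of single genes kept their call, whether called or not: 114 of 130 after normexp, 117 of 130 with quantile normalization, 110 of 130 with the deposited values, 129 of 130 without a filter on dim probes, 103 of 104 with probes well above background on all 28 arrays (Slc7a11 and Ggt1 untested), 128 of 130 with the mean of a gene's probes, 124 of 130 when only the groups compared were fitted, 129 of 130 with slide as a random block, and 1164 of 1200 with an array left out. Values called in both fits had also to keep their direction to be counted. A value called in neither fit was counted as kept even if its sign changed. The cause was not tested for any of the changes below.

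Among values called in the main fit or in the alternative, directions turned for Cth in Fah-/- p53-/- livers on reduced against full NTBC after normexp (0.64, adjusted p 0.0454) and for Gclc in Fah-/- livers from reduced to no NTBC with quantile normalization (0.40). They turned for Gpx4 in Fah-/- p53-/- livers with no against full NTBC after normexp (0.094), quantile normalization (0.52) and the deposited values (0.59), and for Gpx4 in Fah-/- livers from reduced to no NTBC with quantile normalization (0.17) and the deposited values (0.006).

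Of the 10 genes, the count called for p53 loss on full NTBC went from 2 to 1 with the deposited values and with the filter on all 28 arrays. On reduced NTBC it went from 3 to 1 after normexp and with that filter. The filter on all 28 arrays leaves Slc7a11 and Ggt1 untested, and its lower counts come from that, not from calls lost by other genes. With no NTBC the count went from 1 to 2 after normexp, with quantile normalization, in a fit of the groups compared and with trended robust variances, and to 4 with the deposited values. For p21 loss it went from 0 to 1 with quantile normalization. For p53 against p21 loss it went from 5 to 0 with slide as a fixed block and, added after the data were seen, to 3 against the p21 arrays with Ddx3y signal. The difference in response to no NTBC gave 2 with quantile normalization and 0 with the filter on all 28 arrays, where 1 was called (Ggt1, untested under that filter). That to reduced NTBC gave 1 with the deposited values, where 0 were called.

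With each array left out in turn, the count in Fah-/- livers ranged from 8 to 9 on reduced NTBC, 7 to 9 with none and 5 to 7 from reduced to none. In Fah-/- p53-/- livers it ranged from 6 to 8, 8 to 9 and 7 to 7. For p53 loss it ranged from 2 to 2 on full, 2 to 3 on reduced and 0 to 3 with no NTBC, for p21 loss from 0 to 2, for p53 against p21 loss from 3 to 6, and for the differences in response from 0 to 1 (reduced) and 1 to 1 (none).

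The replicate numbers did not pair the arrays: deviations of arrays with the same number correlated at 0.01 to 0.05 on average (-0.23 to 0.36 per pair). With the replicate number as a block, 129 of 130 values kept their call, and Cth in Fah-/- livers with no NTBC was called as well (-0.52, adjusted p 0.0406).

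Over all features normexp lowered the counts from 8072 to 2002 in Fah-/- livers on reduced NTBC, from 13051 to 6733 and from 12446 to 5688 from reduced to no NTBC in Fah-/- and Fah-/- p53-/- livers, from 3175 to 220 and from 2894 to 726 for p53 loss on reduced and no NTBC, from 1529 to 183 for p21 loss, from 2235 to 466 for p53 against p21 loss, and from 2107 to 78 and from 1852 to 239 for the differences in response. It turned the split of higher and lower features from 4118 and 3970 to 2623 and 8060 in Fah-/- p53-/- livers on reduced NTBC. Other splits moved and kept their larger side, from 5951 and 8438 to 3243 and 7240 and from 6015 and 8144 to 3450 and 7288 with no NTBC, and from 1288 and 1541 to 438 and 1521 for p53 loss on full NTBC, from 1998 and 1177 to 113 higher of the 220 for p53 loss on reduced NTBC, and from 1369 and 738 to 59 and 19 for the response to reduced NTBC. The deposited values gave 5745 and 6085 from reduced to no NTBC in Fah-/- p53-/- livers in place of 4705 and 7741, and 2105 for p53 loss on reduced NTBC. The median over all features was -0.35, -0.40 and -0.41 after normexp where it was 0.03, -0.17 and -0.14, and 0.23 for p53 loss on full NTBC.

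Without a filter the counts were 12236 of Fah-/- p53-/- livers on reduced NTBC (8088 with it), 22529 and 21609 with no NTBC (14389 and 14159), 20627 from reduced to no NTBC in Fah-/- livers and 6517 for p53 loss on reduced NTBC, which the filter on all 28 arrays took to 2060. In fits of the groups compared, p53 loss, p21 loss and p53 against p21 loss with no NTBC gave 1336, 351 and 492, and with slide as a fixed block 343, 85 and 188. The p21 loss count was 847 without Fah-/- replicate 2 and 783 without 4, and 656 with the p21 arrays with Ddx3y signal. That of p53 loss with no NTBC was 1911 and 1915 without Fah-/- replicates 3 and 4. That of p53 against p21 loss was 3665 without Fah-/- p53-/- replicate 1, 1366 without 4 and 1469 with the p21 arrays with Xist signal, and that of the response to reduced NTBC 1401 without Fah-/- replicate 2.

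Depth is set by signal over background: levels of Slc7a11 on full NTBC and of Ggt1 in Fah-/- livers on full NTBC are bounds only.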
